A study of Mus musculus with 12 samples.

Results

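The cecum of mice 12 h after cauterization was compared with the cecum of mice given a sham operation. Arrays were chosen by the treatment in their sample label, which gave 3 arrays at 12 h and 3 sham arrays, 6 of the 12 arrays in the series. The other 6 arrays, 3 at 3 h and 3 at 72 h after cauterization, were used to estimate the spread between replicates and for direct comparisons with 12 h.

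The series follows the formation of peritoneal adhesions, bands of scar tissue that join organs of the abdomen, after a burn made on the cecum. All mice were C57BL/6 and labelled male, and their age is not given. In the 12 h group the cecum was cauterized with bipolar forceps and taken 12 h later, and in the sham group it was taken at 0 h, by the study's methods. Time of day, the time since laparotomy and anaesthesia, and cauterization therefore cannot be told apart in this comparison.

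RNA of each cecum was hybridised to a 1-colour Agilent array of 62976 spots, which gave values for 56605 probes and 37074 genes. The level of a gene is the log2 intensity of its brightest probe minus the 75th percentile of the probes of that array, so a level of 0 lies at that percentile and levels of different probes are not comparable. The 75th percentile was an intensity of 201, 214 and 194 on the sham arrays and 217, 215 and 220 on the 12 h arrays. Signal stood well above background, by the scanner software's own test, for 65.0%, 64.6% and 63.3% of the probes on the sham arrays and for 64.6%, 62.4% and 61.3% on the 12 h arrays. Differences are log2 fold changes, 12 h minus sham, with the standard error (SE) of a limma fit and 3 arrays per group. A gene is called where the fold change is above 2 and the p-value, adjusted over all probes by the Benjamini-Hochberg method, is below 0.05. Where a group held an array on which the probe was not well above background, the fold change is given as a bound, written "at least", for which each of its arrays below the lowest signal that stood well above background there was raised to that signal. The sham arrays and 12 h replicates 1 and 2 lay on the same slide, and 12 h replicate 3 lay on another slide with the 72 h arrays, so values with slide as a block in the fit are also given. That fit gives the same as leaving out 12 h replicate 3 for 12 h against sham or 3 h, and rests on 12 h replicate 3 alone for 12 h against 72 h. The size of a change is that of the brightest probe, and other probes of a gene can differ from it.

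Markers of the labelled tissue were measured first. Cdx1 and Cdx2, which set the identity of the hindgut, were well above background on all 6 arrays, as were the epithelial genes Vil1, Epcam, Krt20, Car1, Muc2, Slc26a3 and Lgals4. Of these 9 markers Slc26a3 was called, and it is described with the surface epithelium. The sex label was checked against 5 genes. Xist, the RNA of the inactive X chromosome of females, had levels of 0.00, -0.34 and -0.04 on the sham arrays and -0.77, -0.67 and -0.13 on the 12 h arrays, well above background on all 6. The Y-linked Ddx3y and Eif2s3y were well above background on 0 of the 6 arrays, Uty on 1 sham array, and Kdm5d, whose brightest of 6 probes was used, on all 6. The label male and these values do not match, in both groups alike, and 0 of the 5 genes were called.

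The sham arrays differ among themselves in part of the lists. The median deviation from the sham mean on sham replicates 1, 2 and 3 was -0.36, -0.10 and 0.51 over the 8 neutrophil chemokines and receptors, -0.56, 0.06 and 0.50 over cell cycle genes and -0.52, 0.61 and -0.08 over red blood cell genes. It was small over IL-1 genes (-0.02, -0.03 and 0.06) and neutrophil granule genes (-0.06, -0.04 and 0.11). Sham levels of single genes, such as Il1b and S100a9, still differed more than these medians. Sham replicate 3 was the highest sham array for Ly6g (levels -0.26, 1.11 and 2.52), for Ly6a (1.72, 2.90 and 3.98) and for S100a9 (-3.02, -1.85 and -0.88). Markers of other organs were measured as well. Of 9 exocrine pancreas genes and of 9 liver genes 0 were called, of 11 small intestine genes 1 was called higher and 2 lower, of 9 stomach genes 1 higher and 1 lower, and of 10 skeletal muscle genes 1 higher and 3 lower. After normexp background correction 1 small intestine gene was called, lower, and 0 of the others. Lct, Sis, Pnlip, Prss2, Amy2b, Apoa1, Myh1, Mb and Pgc were well above background on 0 of the 6 arrays. The 7 genes of red blood cells had a median log2 fold change of 1.71 with 0 called. Among them, Hba-a1 had levels of 5.33, 4.63 and 5.35 at 12 h, each above each sham array (log2 fold change 1.71 ± 0.66, adjusted p = 0.0972). It was not called, and the part of blood in the results was not tested.

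As background, a burn kills cells, whose contents start inflammation through receptors on neighbouring cells. Those cells make cytokines such as IL-1, IL-6 and TNF and chemokines that draw neutrophils and then monocytes out of the blood, while clotted plasma forms a fibrin layer on the surface. Mesothelial cells, which line the peritoneal surface, dissolve fibrin and can turn into matrix-forming cells, and fibroblasts later lay down collagen.

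At 12 h, 3360 of 37074 genes were called (9.06%), 1521 of them higher (4.1%) and 1839 lower (4.96%). The median log2 fold change over all genes was -0.01. Of the 21662 genes well above background on all 6 arrays, 2304 were called (10.6%). The 3 arrays of one group lay wholly above or below the 3 of the other for 36.2% of all genes and for 3336 of the 3360 called genes. A change of over 4-fold was seen for 659 genes called higher and 319 called lower. With slide as a block the calls numbered 3543, of which 1585 were higher, and within the slide that holds the sham arrays 3520, of which 1543 were higher. In bulk tissue, fewer cells of a type and less RNA per cell cannot be told apart, and neither can more cells and more RNA per cell.

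**Figure D1:**
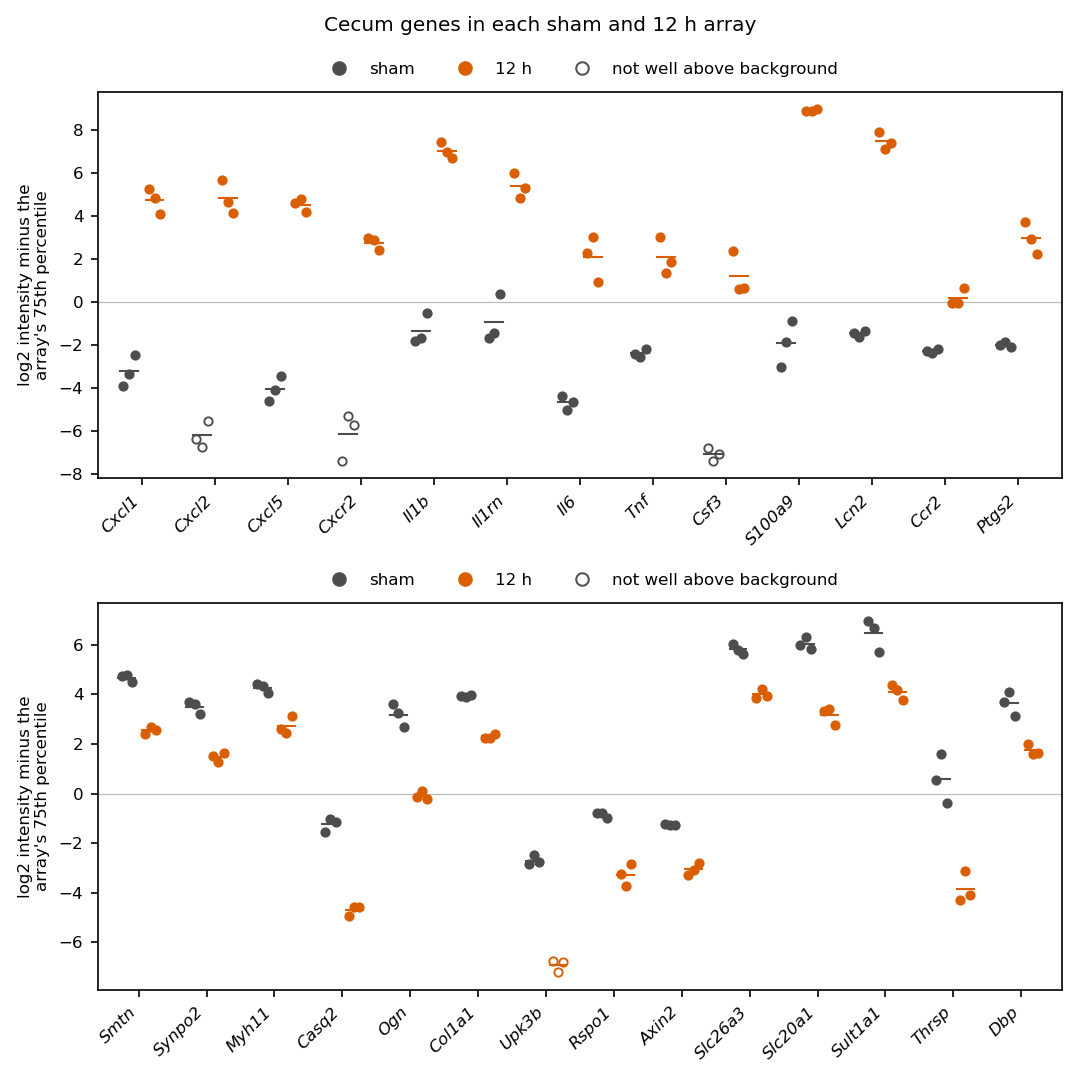
Level of 27 genes on each sham array (grey) and each 12 h array (orange), as log2 intensity minus the array's 75th percentile, with a line at the mean of 3 arrays. Open circles mark probes not well above background, and for each gene of the upper plot the 3 orange points lie above the 3 grey points.

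The chemokines that attract neutrophils rose as a group. All 8 measured neutrophil chemokines and receptors were called higher, with a median log2 fold change of 8.27 (7.87 with genes at their bound, and 8.51 with slide as a block). After normexp background correction 7 were called and the median was 5.18. Cxcl1, a ligand of the receptor CXCR2, had levels of -3.88, -3.32 and -2.43 on the sham arrays and 5.29, 4.83 and 4.12 on the 12 h arrays. The lowest 12 h array stood far above the highest sham array, sham replicate 3, and Cxcl1 rose by 7.96 ± 0.37 (adjusted p = 3.0e-06). Cxcl5, a ligand of the same receptor made by epithelial and stromal cells, had levels of -4.61, -4.08 and -3.43 on the sham arrays and 4.62, 4.79 and 4.19 on the 12 h arrays. All 3 of its 12 h arrays were high, and it rose by 8.57 ± 0.33 (adjusted p = 1.7e-06). Cxcl2 had levels of -6.35, -6.71 and -5.52 on the sham arrays and 5.70, 4.66 and 4.15 on the 12 h arrays and was well above background on 0 sham arrays and on all 3 12 h arrays. It rose at least 927-fold (adjusted p = 2.8e-06), with 12 h replicate 1 the highest array. Cxcl3 rose at least 412-fold (adjusted p = 1.6e-06), and Ppbp, a chemokine stored in platelets, at least 23.1-fold (adjusted p = 2.3e-06), again with 0 sham arrays above background. The receptor Cxcr2, carried by neutrophils, was also above background on 0 sham arrays and rose at least 221-fold (adjusted p = 6.8e-06). Cxcr1 rose at least 4.42-fold with 0 sham arrays above background, a call lost after normexp background correction (log2 fold change 0.42). The platelet chemokine Pf4 rose by 1.81 ± 0.27 (adjusted p = 0.00119).

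Promoters of Cxcl1, Cxcl2, Cxcl3 and Il6, all of them genes that rose, are shown as examples that hold an NF-kB motif. They were not picked by the size of the rise, nor by the match alone, since Tnfaip3, Icam1, Irg1 and Nlrp3 rose and hold it too. Sequences are from RefSeq (GRCm38.p6), from 250 bases before to 50 bases from the start of the gene on, a position that 19827 of 25090 windows with an annotated gene end hold. The motif, GGANTTTCC, was searched on both strands. It was in the windows of 1.45% of 27025 genes, and in 3 of the 7 neutrophil chemokine and receptor genes that have a window. These 3 are Cxcl1, Cxcl2 and Cxcl3, which lie close together on chr5 with the same bases at the match. They are therefore not taken as independent cases. Of the 14 genes of the TNF and NF-kB list that were called higher and have a window, 4 held the motif. It was in 1 of 11 such genes of the IL-6 list, 1 of 24 neutrophil surface and cytosol genes, and 0 of 9 other chemokine and 0 of 14 acute phase genes. Of all called genes 2031 of 3360 have a window, and 36 of 956 called higher and 12 of 1075 called lower held the motif, with no test made. STAT, E-box, D-box and heat shock motifs were searched too, and the STAT motif was in 0 of the 11 genes of the IL-6 list. Cxcl1 is at chr5:90890995-90891294 on the + strand, Cxcl2 at chr5:90903649-90903948 on the + strand, Cxcl3 at chr5:90785851-90786150 on the + strand and Il6, which is described with its receptors, at chr5:30012864-30013163 on the + strand. Capitals mark the match, which is a description and not a shown binding site, and other motifs may share its bases.
Cxcl1: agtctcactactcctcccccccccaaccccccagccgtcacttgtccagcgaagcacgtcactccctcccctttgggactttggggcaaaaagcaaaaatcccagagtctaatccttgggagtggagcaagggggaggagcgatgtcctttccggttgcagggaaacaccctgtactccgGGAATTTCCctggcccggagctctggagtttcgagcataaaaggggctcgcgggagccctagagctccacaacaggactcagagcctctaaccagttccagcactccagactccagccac
Cxcl2: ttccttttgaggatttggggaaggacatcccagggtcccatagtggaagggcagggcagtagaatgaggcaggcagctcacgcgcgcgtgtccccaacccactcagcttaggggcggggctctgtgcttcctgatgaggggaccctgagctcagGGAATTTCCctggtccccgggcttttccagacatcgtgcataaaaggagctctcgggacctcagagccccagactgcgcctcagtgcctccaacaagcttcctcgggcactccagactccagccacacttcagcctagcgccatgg
Cxcl3: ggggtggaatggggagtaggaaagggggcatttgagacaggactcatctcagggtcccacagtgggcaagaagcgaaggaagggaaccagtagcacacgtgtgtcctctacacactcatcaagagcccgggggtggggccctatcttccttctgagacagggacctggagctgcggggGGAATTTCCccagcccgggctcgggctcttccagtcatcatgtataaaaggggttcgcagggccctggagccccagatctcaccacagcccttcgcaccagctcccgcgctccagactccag
Il6: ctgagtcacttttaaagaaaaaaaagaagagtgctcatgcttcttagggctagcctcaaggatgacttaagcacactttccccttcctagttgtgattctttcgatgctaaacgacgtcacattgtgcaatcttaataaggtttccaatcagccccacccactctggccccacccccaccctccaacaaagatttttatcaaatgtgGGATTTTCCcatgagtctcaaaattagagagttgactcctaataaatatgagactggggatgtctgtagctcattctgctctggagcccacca

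Other chemokines rose in part. Of 45 measured chemokines and receptors beyond those of neutrophils, 16 were called higher and 2 lower, with a median of 0.33 (0.44 with slide as a block). Ccl3, which attracts monocytes and other leukocytes, had levels of -3.39, -3.45 and -2.57 on the sham arrays and 7.07, 6.08 and 5.68 on the 12 h arrays. Each 12 h array was above each sham array, and 12 h replicate 1 was highest. It rose by 9.41 ± 0.58 (adjusted p = 9.5e-06), and the related Ccl4 by 9.40 ± 0.54 (adjusted p = 7.2e-06). Ccl2 and Ccl7, which call monocytes through CCR2, rose by 5.97 ± 0.34 and 4.73 ± 0.32 (adjusted p = 7.2e-06 and 1.5e-05). Their receptor Ccr2 had levels of -2.28, -2.37 and -2.17 on the sham arrays and -0.04, -0.05 and 0.68 on the 12 h arrays, and rose by 2.47 ± 0.27 (adjusted p = 2.0e-04) with no overlap of the groups. Ackr4, a scavenger that removes CCL19 and CCL21, fell by 2.69 ± 0.23 (adjusted p = 6.1e-05), and Cx3cr1, the fractalkine receptor of resident macrophages, by 1.21 ± 0.24 (adjusted p = 0.00612).

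Among IL-1 ligands, receptors and inhibitors and the inflammasome, 14 of 24 measured genes were called higher and 0 lower (median 1.39, and 1.49 with slide as a block). Il1b, the cytokine released after inflammasome cleavage, had levels of -1.80, -1.64 and -0.50 on the sham arrays and 7.43, 6.99 and 6.69 on the 12 h arrays. The sham arrays lay below the 12 h arrays throughout, with sham replicate 3 the highest of the sham arrays, and Il1b rose by 8.35 ± 0.41 (adjusted p = 3.5e-06). Il1a, an alarm signal held in cells until they die, was above background on 0 sham arrays and rose at least 45.1-fold (adjusted p = 2.8e-05). Il1f9, which encodes IL-36 gamma, rose at least 62.1-fold in the same way (adjusted p = 4.8e-06). Both natural brakes on IL-1 rose with the ligands. Il1rn, the receptor antagonist, had levels of -1.66, -1.41 and 0.38 on the sham arrays and 6.01, 4.85 and 5.33 on the 12 h arrays, so 12 h replicate 2 was the lowest 12 h array and still far above sham replicate 3. It rose by 6.29 ± 0.58 (adjusted p = 8.2e-05), and Il1r2, a decoy receptor, by 6.29 ± 0.37 (adjusted p = 8.5e-06). The co-receptor Il1rap rose by 2.37 ± 0.17 (adjusted p = 2.2e-05), while the signalling receptor Il1r1 had a log2 fold change of 0.50 ± 0.22 and was not called (adjusted p = 0.148). Il33, an alarm cytokine of stromal and epithelial cells, rose by 3.60 ± 0.18 (adjusted p = 3.6e-06), and the inflammasome sensor Nlrp3 by 3.05 ± 0.35 (adjusted p = 2.9e-04).

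The IL-6 family and the feedback genes of its signal carrier STAT3 had 13 of 25 measured members called higher and 1 lower (median 1.04, and 0.99 with slide as a block). Il6 had levels of -4.35, -5.00 and -4.62 on the sham arrays and 2.31, 3.03 and 0.95 on the 12 h arrays. The 12 h arrays spread more than the sham arrays, with 12 h replicate 3 lowest, and the groups did not overlap (log2 fold change 6.75 ± 0.45, adjusted p = 1.4e-05). Osm, a cytokine of myeloid cells, rose by 7.33 ± 0.43 (adjusted p = 8.4e-06) and its receptor Osmr by 1.90 ± 0.17 (adjusted p = 6.1e-05), of whose other probes 1 was not called (log2 fold change 0.69 ± 0.40). Il11, which stromal cells make, had levels of -3.60, -3.70 and -3.49 on the sham arrays and 1.77, 1.98 and 0.40 on the 12 h arrays, again lowest on 12 h replicate 3 among the 12 h arrays, and rose by 4.98 ± 0.37 (adjusted p = 2.5e-05). Socs3, the inhibitor that STAT3 induces, rose by 4.17 ± 0.36 (adjusted p = 5.7e-05), and the transcription factor Cebpb by 3.25 ± 0.23 (adjusted p = 1.8e-05). Stat3 had a log2 fold change of 0.92 ± 0.11 and the shared receptor chain Il6st 0.57 ± 0.16, and both stayed below the fold change threshold. Ctf1, cardiotrophin 1 of the same family, fell by 1.75 ± 0.21, a call lost after normexp background correction (log2 fold change -0.91).

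Of 30 measured genes of the TNF family and NF-kB signalling, 16 were called higher and 0 lower (median 1.38, and 1.35 with slide as a block). Tnf had levels of -2.42, -2.53 and -2.18 on the sham arrays and 3.04, 1.35 and 1.86 on the 12 h arrays, so 12 h replicate 1 was high and 12 h replicate 2 the lowest of its group, with no overlap. It rose by 4.46 ± 0.47 (adjusted p = 1.7e-04), and by 3.15 ± 0.42 on another probe. Its receptor Tnfrsf1b, found on immune cells, rose by 3.57 ± 0.33 (adjusted p = 9.2e-05), though another probe, brighter on the sham arrays, was not called (log2 fold change 0.24 ± 0.15). Tnfaip3, which encodes the NF-kB brake A20, rose by 3.10 ± 0.38 (adjusted p = 4.1e-04), and Nfkbiz, a nuclear partner of NF-kB, by 2.75 ± 0.30 (adjusted p = 2.1e-04). The colony stimulating factors and their receptors had 6 of 13 members called higher (median 0.91). Csf3, the growth factor of neutrophils, had levels of -6.79, -7.37 and -7.07 on the sham arrays and 2.40, 0.60 and 0.66 on the 12 h arrays. It was above background on 0 sham arrays and rose at least 75.6-fold (adjusted p = 7.7e-06), while its receptor Csf3r had a log2 fold change of -0.34 ± 0.12 and was not called. Csf2rb, the shared receptor chain for IL-3, IL-5 and GM-CSF, rose by 3.21 ± 0.26 (adjusted p = 4.4e-05; 1.76 ± 0.20 on a dimmer probe), and Il34, a ligand of the CSF1 receptor, by 1.58 ± 0.15 (adjusted p = 9.7e-05).

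In the IL-17, IL-22 and IL-10 families 9 of 25 measured genes were called higher (median 0.45), but after normexp background correction 3 were. Il22, which acts on epithelium, had levels of -6.62, -5.06 and -2.77 on the sham arrays and 0.64, -0.29 and 0.47 on the 12 h arrays. This probe was above background on 1 sham array, sham replicate 3, and on all 12 h arrays (adjusted p = 0.00718). A dimmer probe of Il22, well above background on all 6 arrays, gave a log2 fold change of 2.89 ± 0.57, so the probes disagree on the size of the rise. Il10ra, a receptor chain for IL-10, rose by 2.22 ± 0.24 (adjusted p = 1.9e-04). Il17a rose at least 7.33-fold, Il23a at least 4.1-fold and Il10 at least 3.86-fold, each with 0 sham arrays above background. After normexp correction these 3 were not called, with log2 fold changes of 0.87, 0.51 and 0.50. The interferon response had 4 of 42 members called higher, 0 lower and a median of 0.46 (2 called with slide as a block, median 0.55, and 2 to 6 higher on leaving out 1 array). Socs1, an inhibitor of interferon signalling, rose by 1.58 ± 0.21 (adjusted p = 5.6e-04). Ifng was above background on 0 sham arrays and on 2 of the 12 h arrays and was not called (adjusted p = 0.0617).

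Genes of neutrophils rose broadly. Of 39 measured neutrophil surface and cytosol genes 34 were called higher and 0 lower, with a median of 3.92 (3.65 at bounds, 4.04 with slide as a block and 3.05 after normexp). Clec4d, a C-type lectin receptor, had levels of -4.79, -3.97 and -3.66 on the sham arrays and 5.20, 4.51 and 4.69 on the 12 h arrays. Its groups were far apart (log2 fold change 8.94 ± 0.38, adjusted p = 2.3e-06). Clec4e, which senses dead cells and fungi, was above background on 0 sham arrays and rose at least 616-fold (adjusted p = 2.8e-06). Fpr1 and Fpr2, receptors for formylated peptides of bacteria and mitochondria, rose by 7.11 ± 0.53 and 6.16 ± 0.48 (adjusted p = 2.4e-05 and 3.3e-05). Hdc, the enzyme that makes histamine, had levels of -4.21, -4.11 and -3.48 on the sham arrays and 5.05, 4.38 and 4.44 on the 12 h arrays and rose by 8.56 ± 0.37 (adjusted p = 2.3e-06). It was the 1 called gene of 20 mast cell and eosinophil genes (median 0.42). Stfa2l1, Stfa1 and BC100530, stefin A genes of near-identical sequence whose probes may share signal, rose at least 498-fold, 164-fold and 475-fold with 0 sham arrays above background. Ly6g, the surface marker of mouse neutrophils, had levels of -0.26, 1.11 and 2.52 on the sham arrays and 4.92, 4.57 and 4.82 on the 12 h arrays. Its sham arrays ranged widely, all below the 12 h arrays, and it rose by 3.65 ± 0.55 (adjusted p = 0.00136). Itgam, an integrin chain of myeloid cells, was not called (log2 fold change 0.16 ± 0.12), while a dimmer probe of it was (log2 fold change 1.46 ± 0.21).

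The granule genes of neutrophils had 15 of 20 measured members called higher and 0 lower (median 3.55, 3.31 at bounds, 3.67 with slide as a block and 1.80 after normexp). Lcn2, lipocalin 2, which takes iron from bacteria, had levels of -1.42, -1.60 and -1.32 on the sham arrays and 7.91, 7.13 and 7.41 on the 12 h arrays. Sham and 12 h arrays were each close together and did not overlap (log2 fold change 8.93 ± 0.60, adjusted p = 1.6e-05). S100a8, a chain of calprotectin, was above background on 2 sham arrays and rose at least 4527-fold (adjusted p = 3.2e-06). Among those that rose were Ltf, lactoferrin, up at least 28.2-fold over 0 sham arrays above background (adjusted p = 9.7e-04), Mmp8, a collagenase, up by 6.97 ± 0.72 (adjusted p = 1.6e-04), Camp, cathelicidin, by 3.23 ± 0.52 (adjusted p = 0.00189) and Mmp9, gelatinase B, by 3.38 ± 0.24 (adjusted p = 1.9e-05). Mpo, Elane and Ctsg were not called. The log2 fold change was 0.83 ± 0.39 for Mpo, myeloperoxidase, and 0.27 ± 0.12 for Elane, neutrophil elastase (adjusted p = 0.169 and 0.148). Ctsg, cathepsin G, was well above background on 2 sham arrays and 0 of the 12 h arrays (adjusted p = 0.638).

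Macrophage genes were read in a pair of lists. Of 25 genes of monocytes and recruited macrophages 17 were called higher and 1 lower (median 2.17, and 2.19 with slide as a block). Of the 25, 11 are also in another list, so this list is not separate from the others. Cd14, the co-receptor for bacterial lipopolysaccharide, rose by 4.49 ± 0.30 (adjusted p = 1.5e-05), Ly6c2, a surface marker of inflammatory monocytes, by 2.56 ± 0.35 (adjusted p = 8.0e-04) and Nos2, which makes nitric oxide, by 3.45 ± 0.51 (adjusted p = 0.00114). Irg1, which makes itaconate in activated macrophages, had levels of -2.03, -2.59 and -1.75 on the sham arrays and 6.44, 5.24 and 5.71 on the 12 h arrays and rose by 7.92 ± 0.51 (adjusted p = 1.3e-05). Of 24 resident macrophage genes 2 were called higher and 5 lower (median -0.34, 3 to 5 lower on leaving out 1 array and 7 within the slide of the sham arrays). Adgre1, a macrophage surface receptor, rose by 1.21 ± 0.21 (adjusted p = 0.00285), against most of the called members. Folr2, a macrophage folate receptor, had a log2 fold change of -1.47 (adjusted p = 0.0215). Its call was lost after normexp correction and on leaving out some single arrays. Cx3cr1, given with the chemokines, was lower too. Csf1r, C1qa, Mrc1 and Cd163 were not called, with log2 fold changes of -0.28 ± 0.11, -0.26 ± 0.17, -0.32 ± 0.35 and 0.20 ± 0.32.

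Lymphocyte genes were called near the background share. Of 35 genes of T, NK and innate lymphoid cells 2 were called higher and 1 lower (median 0.23, and 1 and 0 after normexp), and of 24 B and plasma cell genes 0 higher and 1 lower (median 0.10, and 0 either way after normexp). Gzma, a protease of cytotoxic granules, rose by 1.81 ± 0.30 (adjusted p = 0.00234). Among 27 genes of dendritic cells and MHC class II 3 were called higher (median -0.30). Ccr7, which guides these cells to lymph nodes, rose by 1.70 ± 0.31 (adjusted p = 0.00373) and the co-stimulator Cd80 by 1.35 ± 0.23 (adjusted p = 0.00243). On 3 dimmer probes of Cd80, also called higher, the rise was larger. Those probes were well above background on 0, 0 and 1 sham arrays, so no exact fold change is given for them.

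Pattern recognition genes had 18 of 38 members called higher and 1 lower (median 0.49). Irak3, a brake on Toll-like receptor signals, rose by 3.48 ± 0.36 (adjusted p = 1.6e-04), Nod2, a sensor of bacterial cell wall, by 2.79 ± 0.27 (adjusted p = 1.1e-04) and Tyrobp, an adaptor of myeloid receptors, by 2.68 ± 0.16 (adjusted p = 8.6e-06). The flagellin receptor Tlr5 fell by 1.29 ± 0.25, a call lost after normexp correction (log2 fold change -0.55). Of 26 leukocyte adhesion genes 10 were called higher and 0 lower (median 0.36). On the vessel side Selp, P-selectin, had levels of -3.07, -2.88 and -2.68 on the sham arrays and 0.65, 0.81 and 0.17 on the 12 h arrays, with a wide gap between the groups, and rose by 3.42 ± 0.26 (adjusted p = 2.7e-05). Icam1, the ligand of leukocyte integrins, rose by 2.17 ± 0.31 (adjusted p = 0.00101). On the leukocyte side the integrin chain Itgb2 rose by 2.57 ± 0.27 and Selplg, the ligand of P-selectin, by 2.28 ± 0.22 (adjusted p = 1.7e-04 and 9.6e-05). The complement list had 5 of 26 members called higher and 0 lower (median -0.02), among them the receptor for the fragment C5a, C5ar1, which rose by 4.63 ± 0.20 (adjusted p = 2.3e-06), and Cd55, which shields host cells, which rose by 2.15 ± 0.15 (adjusted p = 1.8e-05, with a dimmer probe at 0.42 ± 0.27 and not called). Of 32 prostaglandin and leukotriene genes 6 were called higher and 1 lower (median 0.05, and 4 and 0 after normexp). Ptgs2, which encodes COX-2, had levels of -2.01, -1.84 and -2.07 on the sham arrays and 3.75, 2.95 and 2.26 on the 12 h arrays. All 12 h arrays were high, with replicate 3 the lowest of them, and it rose by 4.96 ± 0.35 (adjusted p = 1.8e-05). Alox5ap, needed for leukotriene synthesis, rose by 3.99 ± 0.25 and Ltb4r1, the receptor for leukotriene B4 on neutrophils, by 3.90 ± 0.23 (adjusted p = 1.1e-05 and 8.2e-06).

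Genes of clotting and of fibrin breakdown rose in part. Coagulation and fibrinolysis genes had 9 of 35 members called higher and 0 lower (median 0.38, and 6 higher after normexp). Serpinb2, an inhibitor of plasminogen activators, was above background on 0 sham arrays and rose at least 103-fold (adjusted p = 5.5e-05). Plaur, the receptor of urokinase, rose by 4.83 ± 0.38 (adjusted p = 3.7e-05), and coagulation factor X, F10, at least 133-fold with 2 sham arrays above background (adjusted p = 2.2e-05). Fgb, the fibrinogen beta chain made by liver, was above background on 0 of the 6 arrays. Acute phase genes had 17 of 26 members called higher and 0 lower (median 1.81, 1.59 at bounds, 1.72 with slide as a block and 1.1 after normexp). Hp, haptoglobin, had levels of -0.89, -0.10 and -1.21 on the sham arrays and 6.15, 5.29 and 5.75 on the 12 h arrays, all 12 h arrays being high, and rose by 6.46 ± 0.43 (adjusted p = 1.4e-05). Saa3, a serum amyloid made outside the liver, rose by 5.69 ± 0.47 (adjusted p = 4.6e-05), and the iron and copper reductase Steap4 by 4.42 ± 0.32 (adjusted p = 2.0e-05).

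Collagen genes were lower in part. Of 44 measured collagen chains 1 was called higher and 15 lower (median -0.75, -0.71 at bounds and -0.65 with slide as a block), and after normexp background correction 7 were called lower, with a median of -0.23. Col1a1, a chain of the main fibrillar collagen, had levels of 3.95, 3.88 and 3.96 on the sham arrays and 2.25, 2.26 and 2.39 on the 12 h arrays. Both groups were tight, and each 12 h array lay below each sham array (log2 fold change -1.63 ± 0.26, adjusted p = 0.00179). Its partner chain Col1a2 fell by 1.83 ± 0.29 (adjusted p = 0.0017) and the basement membrane chain Col4a5 by 1.71 ± 0.18 (adjusted p = 1.7e-04, with a dimmer probe at -0.82 ± 0.27 and not called). Col8a1 rose by 1.16 ± 0.23 against the rest of the list, a call lost after normexp correction, where its change came just short of the fold threshold. In the list of collagen crosslinking and folding 3 of 21 were called higher and 1 lower (median 0.13), but 2 higher and 3 lower with slide as a block, and 1 higher and 1 lower after normexp. Tgm2, a transglutaminase that crosslinks proteins, rose by 1.84 ± 0.17 (adjusted p = 8.5e-05), and Pcolce, which speeds collagen maturation, fell from 3.83, 4.04 and 4.07 on the sham arrays to 2.44, 2.43 and 2.56 at 12 h (adjusted p = 0.00475).

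Matricellular, hyaluronan and other matrix genes moved both ways, with 14 of 44 called higher and 10 lower (median 0.02, and -0.09 with slide as a block), and 10 and 6 after normexp, with 6 to 10 lower on leaving out 1 array. Thbs1, thrombospondin 1, had levels of 0.60, -0.02 and 0.22 on the sham arrays and 5.52, 5.14 and 3.90 on the 12 h arrays, lowest on 12 h replicate 3 within its group yet without overlap, and rose by 4.59 ± 0.38 (adjusted p = 4.2e-05). Tnfaip6, which binds hyaluronan, rose by 3.58 ± 0.26 (adjusted p = 2.1e-05), and Spp1, osteopontin, by 3.30 ± 0.72 (adjusted p = 0.00926). Ogn, a small leucine-rich proteoglycan, had levels of 3.62, 3.23 and 2.70 on the sham arrays and -0.14, 0.09 and -0.20 on the 12 h arrays. The sham arrays were all high, and it fell by 3.27 ± 0.27 (adjusted p = 4.2e-05). Efemp1, a fibulin, fell by 1.77 ± 0.19 (adjusted p = 2.2e-04). Of 36 matrix proteases and inhibitors 15 were called higher and 3 lower (median 0.59), and after normexp 13 and 0. Timp1, an inhibitor of matrix metalloproteinases, rose by 4.37 ± 0.35 (adjusted p = 3.9e-05), stromelysin 2, Mmp10, by 4.78 ± 0.45 (adjusted p = 9.4e-05) and Adamts4, an aggrecanase, by 4.08 ± 0.37 (adjusted p = 7.3e-05). TGF-beta, activin and BMP genes had 8 of 47 called higher and 4 lower (median 0.05, with 6 lower with slide as a block and 2 after normexp). Inhba, an activin chain, rose by 2.79 ± 0.29 (adjusted p = 1.7e-04), the BMP antagonist Grem1 by 2.64 ± 0.28 (adjusted p = 1.7e-04) and Itgb6, whose integrin activates TGF-beta, by 1.86 ± 0.15 (adjusted p = 4.2e-05). Tgfb1 rose by 1.21 ± 0.18 (adjusted p = 0.00125), a call lost after normexp correction (log2 fold change 0.85). Ltbp3, which stores TGF-beta in the matrix, fell by 1.63 ± 0.24 (adjusted p = 0.00117, with a dimmer probe at -0.95 ± 0.26 and not called).

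Smooth muscle genes fell together. Of 28 measured smooth muscle and myofibroblast genes 0 were called higher and 21 lower (median -1.34, and -1.54 with 21 lower with slide as a block), and after normexp correction 14 were called lower. Smtn, smoothelin of contractile fibres, had levels of 4.73, 4.78 and 4.51 on the sham arrays and 2.41, 2.69 and 2.55 on the 12 h arrays. Each group was tight and they did not overlap (log2 fold change -2.12 ± 0.12, adjusted p = 7.3e-06). Myh11, the smooth muscle myosin heavy chain, had levels of 4.41, 4.33 and 4.04 on the sham arrays and 2.60, 2.42 and 3.13 on the 12 h arrays, with 12 h replicate 3 closest to the sham arrays, and fell by 1.54 ± 0.24 (adjusted p = 0.0015). Acta2, smooth muscle actin, fell by 1.52 ± 0.21, Tagln, transgelin, by 1.48 ± 0.18 and the enteric actin Actg2 by 1.20 ± 0.17 (adjusted p = 7.9e-04, 3.9e-04 and 9.5e-04). The probes of Acta2 disagree, since another bright one, well above background on all 6 arrays, had a log2 fold change of -0.04 ± 0.13 and was not called. Casq2, a calcium store protein, fell by 3.47 ± 0.16 (adjusted p = 3.1e-06), and Synpo2, an actin bundler, fell by 2.03 ± 0.21 (adjusted p = 1.5e-04), with a dimmer probe not called (log2 fold change -0.60 ± 0.26). Potassium channels had 2 of 33 called higher and 10 lower (median -0.57, -0.41 at bounds), but 1 lower after normexp correction. Against most of the called channels, Kcnj2, an inward rectifier, rose by 4.37 ± 0.28 (adjusted p = 1.3e-05). So did the ATP-sensitive channel of vessels, Kcnj8, by 1.74 ± 0.19 (adjusted p = 2.0e-04).

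Enteric neuron, glia and pacemaker genes had 1 of 36 called higher and 6 lower (median -0.38), and 11 lower with a median of -0.60 with slide as a block, while after normexp correction 1 was lower. On leaving out 1 array 5 to 11 were lower. Etv1, a transcription factor of pacemaker cells, fell by 1.34 ± 0.15 (adjusted p = 2.1e-04). S100b, a glial protein, fell by 2.15 ± 0.19, a call lost after normexp correction (log2 fold change -0.81). Phox2a, a transcription factor of autonomic neurons, had levels of -1.43, -1.39 and -1.38 on the sham arrays and 0.60, 0.49 and 0.69 on the 12 h arrays, with both groups tight and apart, and rose by 1.99 ± 0.17 (adjusted p = 4.8e-05).

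Mesothelial genes had 1 of 17 called higher and 6 lower (median -0.83, and -1.20 with slide as a block), and after normexp correction 2 lower with a median of -0.23. Upk3b, a uroplakin and marker of mesothelium, had levels of -2.84, -2.50 and -2.78 on the sham arrays and -6.74, -7.20 and -6.81 on the 12 h arrays. It was above background on all sham arrays and on 0 of the 12 h arrays and fell at least 4.8-fold (adjusted p = 1.5e-04). Lrrn4, a further surface marker, went the same way and fell at least 4.28-fold (adjusted p = 5.1e-04). Normexp correction ended the calls of Upk3b and Lrrn4 (log2 fold changes -0.72 and -0.62). Rspo1, a Wnt amplifier, fell by 2.42 ± 0.39 (adjusted p = 0.00173). Pdpn, podoplanin, which stromal and lymphatic cells also carry, rose by 2.32 ± 0.13 (adjusted p = 6.3e-06). Wt1, the mesothelial transcription factor, had levels of -2.50, -2.32 and -2.68 on the sham arrays and -2.42, -3.09 and -1.40 on the 12 h arrays and was not called (adjusted p = 0.893), its 12 h arrays lying on both sides of the sham arrays. Fibroblast, hedgehog and Wnt stroma genes had 0 of 29 called higher and 6 lower (median -0.62, with 1 lower after normexp correction and 3 to 6 on leaving out 1 array). Hhip, a hedgehog decoy, fell by 2.34 ± 0.23 (adjusted p = 1.4e-04). Of 28 fat cell genes 3 were called higher and 4 lower (median -0.99, 2 lower after normexp and 2 to 5 on leaving out 1 array). Adrb3, the beta 3 adrenergic receptor, fell by 3.42 ± 0.52 (adjusted p = 0.00135) and Slc2a4, the insulin-sensitive glucose transporter, fell by 1.77 ± 0.20 (adjusted p = 2.3e-04). Angptl4, an inhibitor of lipoprotein lipase, rose by 2.48 ± 0.32 (adjusted p = 5.7e-04). Endothelium and angiogenesis genes had 2 of 33 called higher and 4 lower (median -0.24), but 1 higher and 0 lower after normexp correction and 2 to 4 lower on leaving out 1 array. Apln, apelin of sprouting vessels, rose by 2.07 ± 0.27 (adjusted p = 5.5e-04), against most of the called members of that list.

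Transporters of the surface epithelium were lower in part. Of 45 colon surface genes 1 was called higher and 9 lower (median -0.34), and 2 higher and 5 lower with slide as a block (median -0.29). On leaving out 1 array 5 to 11 were lower. Slc26a3, the chloride and bicarbonate exchanger, had levels of 6.04, 5.78 and 5.61 on the sham arrays and 3.84, 4.23 and 3.95 on the 12 h arrays. The groups were apart on all arrays (log2 fold change -1.81 ± 0.19, adjusted p = 1.8e-04). Slc20a1, a phosphate transporter, fell by 2.87 ± 0.20 (adjusted p = 1.8e-05), and Slc30a10, a manganese exporter, fell by 2.89 ± 0.50 (adjusted p = 0.00281). Slc37a2, a sugar phosphate exchanger, had levels of 6.04, 5.94 and 5.27 on the sham arrays and 2.38, 1.91 and 1.65 on the 12 h arrays and fell by 3.77 ± 0.24 (adjusted p = 1.2e-05), and the monocarboxylate transporter Slc16a9 fell by 3.21 ± 0.25 (adjusted p = 2.8e-05). Epithelial junction genes had 1 of 28 called higher and 2 lower (median 0.30, and 0 and 1 after normexp), with the claudin Cldn15 down by 1.22 ± 0.22 (adjusted p = 0.00334). Goblet cell and mucus genes had 2 of 25 called higher and 0 lower (median 0.00), and enteroendocrine genes 2 of 30 higher and 1 lower (median -0.27). After normexp 0 goblet and 1 enteroendocrine gene were called higher. Muc2, the main mucin, had a log2 fold change of -0.31 ± 0.15 and was not called.

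Crypt stem cell and Wnt target genes moved both ways, with 5 of 28 called higher and 4 lower (median -0.09), 3 and 1 after normexp, and 2 to 5 lower on leaving out 1 array. Ly6a, Sca-1, a marker of regenerating epithelium that other cells carry too, had levels of 1.72, 2.90 and 3.98 on the sham arrays and 5.89, 5.99 and 5.74 on the 12 h arrays. Sham replicate 3 was the highest sham array and still below all 12 h arrays, and Ly6a rose by 3.01 ± 0.46 (adjusted p = 0.00137). Anxa1, annexin A1, of the same regenerating state, rose by 2.53 ± 0.24 (adjusted p = 8.8e-05). Axin2, a target of Wnt signals, fell by 1.79 ± 0.20 (adjusted p = 2.4e-04), a call lost after normexp correction (log2 fold change -0.84). Ascl2, a stem cell transcription factor, fell by 1.61 ± 0.33 (adjusted p = 0.00626), a call lost with the mean of all probes (log2 fold change -0.58). Epithelial defence genes had 13 of 30 called higher and 0 lower (median 1.03, 0.85 with slide as a block and 0.32 after normexp). Reg3g, an antibacterial lectin, had levels of -0.56, 3.28 and 2.80 on the sham arrays and 5.91, 5.99 and 5.25 on the 12 h arrays, with sham replicate 1 far below the other sham arrays, and rose by 3.87 ± 0.88 (adjusted p = 0.0114). Against the other sham arrays alone the rise of Reg3g would be smaller. Plet1, of hair follicle and wound epithelium, rose by 4.43 ± 0.38 (adjusted p = 6.0e-05), the protease inhibitor Wfdc18 by 3.80 ± 0.22 (adjusted p = 8.1e-06) and Sprr2h, of the near-identical Sprr2 family, at least 51.5-fold with 2 sham arrays above background (adjusted p = 9.8e-04). In the list of EGF, HGF, FGF, PDGF and IGF genes 7 of 38 were called higher and 4 lower (median -0.17, 0.02 and 6 lower with slide as a block, and 2 lower after normexp). The EGF receptor ligands Ereg and Areg rose by 2.20 ± 0.35 and 1.87 ± 0.36 (adjusted p = 0.00182 and 0.00505).

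Metabolic genes of the gut were lower in part. Cytochrome P450 and drug metabolism genes had 0 of 52 called higher and 19 lower (median -0.51, and 15 lower with a median of -0.45 with slide as a block). Sult1a1, a sulfotransferase, had levels of 6.97, 6.69 and 5.72 on the sham arrays and 4.36, 4.18 and 3.76 on the 12 h arrays, highest on sham replicate 1 and without overlap, and fell by 2.36 ± 0.31 (adjusted p = 5.5e-04). Adh1, alcohol dehydrogenase, fell by 1.92 ± 0.31 (adjusted p = 0.00173). Cyp1a1, a target of the aryl hydrocarbon receptor, was above background on all sham arrays and 0 of the 12 h arrays and fell at least 3.9-fold (adjusted p = 1.6e-05), though it was not called after normexp correction (log2 fold change -0.62). Fatty acid oxidation and ketone synthesis had 1 of 28 called higher and 7 lower (median -0.61, and 5 lower with slide as a block). Ppara and Ppargc1a, regulators of fat burning, fell by 1.67 ± 0.22 and 1.71 ± 0.19 (adjusted p = 6.2e-04 and 2.5e-04), and Pdk4, which saves glucose, fell by 2.09 ± 0.22 (adjusted p = 1.6e-04). In fatty acid and sterol synthesis 0 of 39 were called higher and 5 lower (median -0.32), and Thrsp, an activator of fat synthesis, fell by 4.41 ± 0.77 (adjusted p = 0.00277). Of 59 respiratory chain genes 0 were called either way (median -0.17) and after normexp correction 0 were, with limma. Amino acid and peptide transporters had 9 of 30 called higher and 1 lower (median 0.42), but 4 higher and 0 lower after normexp correction. Slc15a3, a peptide transporter of endosomes, rose by 4.09 ± 0.34 (adjusted p = 4.6e-05).

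Stress genes rose in several lists. Immediate early genes had 18 of 33 called higher and 0 lower (median 1.26, and 21 higher with a median of 1.40 with slide as a block). Dusp1, a phosphatase that ends MAP kinase signals, had levels of 1.67, 1.55 and 1.31 on the sham arrays and 5.78, 5.13 and 5.03 on the 12 h arrays, with a clear gap between the groups, and rose by 3.80 ± 0.21 (adjusted p = 6.7e-06). Nr4a1, a nuclear receptor induced within minutes, rose by 4.16 ± 0.30 (adjusted p = 2.3e-05) and Egr1 by 2.60 ± 0.27 (adjusted p = 1.7e-04). Unfolded protein and integrated stress response genes had 12 of 34 called higher and 0 lower (median 0.88). Asns, asparagine synthetase, rose by 2.14 ± 0.28 (adjusted p = 6.2e-04) and Atf3 by 2.17 ± 0.26 (adjusted p = 3.2e-04). Heat shock genes had 6 of 24 called higher and 0 lower (median 0.51), and leaving out 1 array gave 3 to 8 higher. Hspa1a, the inducible HSP70, had levels of 0.98, 1.14 and 1.45 on the sham arrays and 5.27, 5.28 and 4.15 on the 12 h arrays and rose by 3.71 ± 0.35 (adjusted p = 9.9e-05), with the 12 h arrays apart from the sham arrays. Of 34 hypoxia and glycolysis genes 11 were called higher and 0 lower (median 0.44). Slc16a3, the lactate exporter, rose by 3.49 ± 0.37 (adjusted p = 1.8e-04), and Pfkfb3, which speeds glycolysis, by 3.42 ± 0.42 (adjusted p = 3.8e-04). Oxidative stress and metal binding had 6 of 33 higher and 1 lower (median 0.16), with Hmox1, heme oxygenase 1, up by 3.03 ± 0.23 (adjusted p = 2.5e-05).

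Glucocorticoid and mineralocorticoid response genes had 6 of 27 called higher and 2 lower (median 0.43, and 0.25 with slide as a block). Mt2, metallothionein 2, rose by 1.84 ± 0.16 (adjusted p = 5.7e-05), and Hsd11b1, which turns inactive steroid into its active form, by 1.28 ± 0.23 (adjusted p = 0.00297). Circadian clock genes had 3 of 21 called higher and 6 lower (median -0.40, 4 lower with slide as a block, 2 after normexp and 3 to 5 on leaving out 1 array). Dbp, a clock output, had levels of 3.71, 4.10 and 3.11 on the sham arrays, was lower on each 12 h array, and fell by 1.90 ± 0.35 (adjusted p = 0.00389). Nfil3, which binds the same sites as DBP and represses them, rose by 3.06 ± 0.33 (adjusted p = 1.9e-04). Since the sham group was taken at 0 h, the hour of the day and the operation cannot be told apart for these genes. Of 48 cell cycle and mitosis genes 0 were called higher and 1 lower (median -0.10). Leaving out 1 array gave medians of -0.34 to 0.13 with 0 to 3 called each way, so the median has no firm direction. Mki67, a marker of dividing cells, was not called (log2 fold change -0.40 ± 0.25, adjusted p = 0.318).

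**Figure D2:**
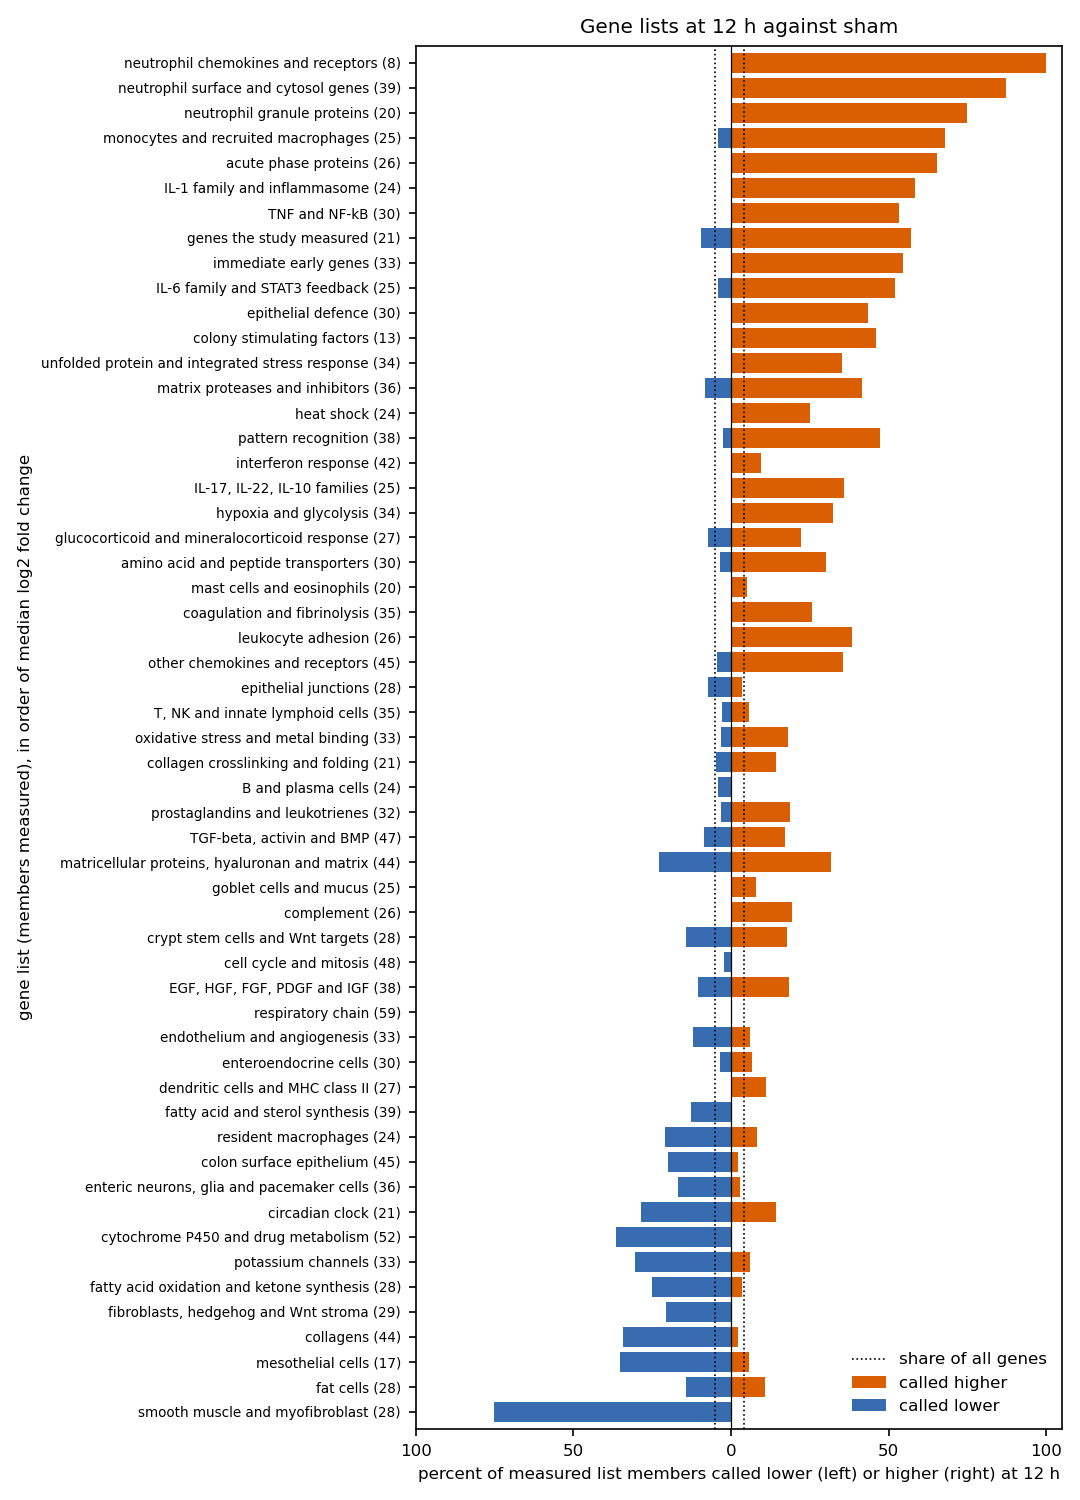
Percent of the measured members of each gene list called higher (orange, right) or lower (blue, left) at 12 h against sham, with the lists in order of their median log2 fold change. Dotted lines mark the share of all genes called, 4.1% higher and 4.96% lower, and the neutrophil lists lie at the top and smooth muscle at the bottom.

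Direct comparisons place 12 h among the other times. They share the 12 h arrays with the comparison against sham. The 3 h arrays lie on the slide of 12 h replicates 1 and 2, and the 72 h arrays on that of 12 h replicate 3. Against 3 h, 1282 genes were called (3.46%), 702 higher at 12 h (1.89%) and 580 lower (1.56%), and with slide as a block 905. Neutrophil surface and cytosol genes had 20 of 39 higher than at 3 h and 0 lower, and monocyte genes 10 of 25 higher and 0 lower (16 and 7 higher with slide as a block). Nfe2, a transcription factor of blood cells, had levels of -2.15, -1.55 and -1.64 at 3 h and 1.90, 1.79 and 1.37 at 12 h, higher on each 12 h array by 3.47 ± 0.28 (adjusted p = 5.4e-04). Pilra, an inhibitory receptor of myeloid cells, was higher by 3.48 ± 0.39 (adjusted p = 0.00143, though 1 of its 2 other probes was not called against sham, at -0.26 ± 0.13) and Ltb4r1 by 2.83 ± 0.23 (adjusted p = 5.7e-04). Krt36, a hair keratin, had levels of 4.26, 4.16 and 4.37 at 3 h, above each 12 h array (0.71, 0.40 and 0.52), and was lower at 12 h by 3.72 ± 0.48 (adjusted p = 0.00238). Phox2a was lower at 12 h than at 3 h (-2.62 ± 0.17, adjusted p = 1.6e-04), as was Hspa1a (-2.49 ± 0.35, adjusted p = 0.00344). Of the cytochrome P450 genes 12 of 52 were lower at 12 h than at 3 h, and of the neutrophil chemokines and receptors 3 of 8 higher (3 and 2 with slide as a block).

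Against 72 h, 2788 genes were called (7.52%), 1184 higher at 12 h (3.19%) and 1604 lower (4.33%), and with slide as a block 1225. Matrix genes were lower in part at 12 h than at 72 h, with 23 of 44 collagens, 14 of 21 crosslinking and folding genes and 24 of 44 matricellular genes called so, and with slide as a block 17, 10 and 15. Cthrc1, a secreted protein of matrix-forming fibroblasts, had levels of -3.69, -4.59 and -3.74 at 12 h, all below those at 72 h (3.02, 1.24 and 0.73), a difference of -5.67 ± 0.50 (adjusted p = 1.8e-04). Trem2, a lipid receptor of macrophages, was lower by 4.70 ± 0.28 (adjusted p = 5.0e-05), and 16 of 24 resident macrophage genes were lower at 12 h (12 with slide as a block). Slc9a3, the sodium and proton exchanger of surface epithelium, had levels of 4.97, 4.23 and 4.07 at 12 h and -2.12, -2.78 and 0.28 at 72 h, so each 12 h array was above each 72 h array (5.96 ± 0.64, adjusted p = 4.2e-04). Of the colon surface genes 8 of 45 were higher at 12 h than at 72 h and 0 lower (7 higher with slide as a block). Interferon response genes had 14 of 42 higher at 12 h than at 72 h and 0 lower, and immediate early genes 12 of 33 higher and 0 lower, but with slide as a block 1 and 1 were called higher. The median difference was 0.85 without and 0.90 with the block for interferon genes, and 0.68 and 0.45 for immediate early genes.

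**Figure D3:**
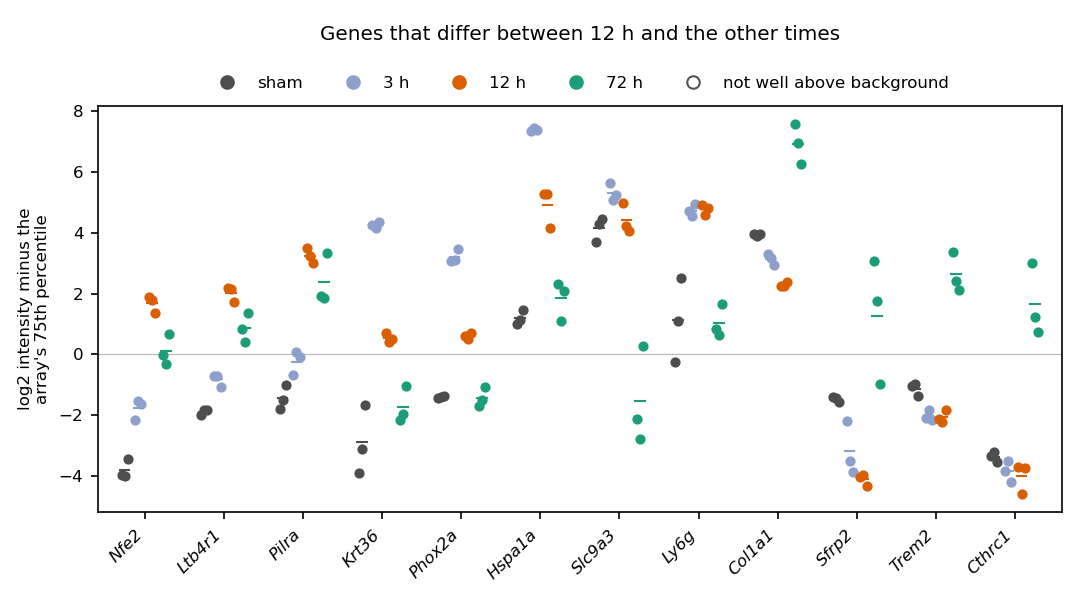
Level of 12 genes on each of the 12 arrays, as log2 intensity minus the array's 75th percentile, with a line at the mean of 3 arrays for sham (grey), 3 h (blue), 12 h (orange) and 72 h (green). Nfe2 is higher on each 12 h array than on each 3 h array, and Cthrc1 is lower on each 12 h array than on each 72 h array.

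Among the 21 genes the study itself measured, 12 were called higher and 2 lower at 12 h against sham (median 1.36, 1.21 at bounds, and 9 higher after normexp). Since the study chose them, these counts are not independent of it. Of Cxcl1, Cxcl2 and Cxcl5, the paper reports a significant induction after the operation for Cxcl2 alone. Here each of these chemokines was called higher at 12 h, and the cause of the difference was not tested. The precision of each value is limited by the 3 arrays of a group.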

How the data were processed

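Per the file headers (Agilent Feature Extraction 11.5.1.1), what the authors deposited for each array is a linear, background-corrected intensity for each spot. The authors deposited a log2 table too, of 56743 probes, 138 of them controls. Its values are centred per probe, although by the methods the baseline was not transformed. After centring both, their correlation with the levels used here was at least 0.99996 on each array over 56605 probes.

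Outlier spots were left out, spots of a probe averaged, and log2 intensity minus each array's 75th percentile taken. The differences 12 h minus sham, 12 h minus 3 h and 12 h minus 72 h were tested with limma 3.58.1 under R 4.3.3, using lmFit, then contrasts.fit and eBayes, with 4 groups and 12 arrays in 1 fit. The p-values were adjusted over 56605 probes. For the arrays the methods give thresholds of fold change and of false discovery rate and name no test, and limma's moderated test was used. The methods' t-test is the paired one they give for comparisons of 2 groups in general. Where a gene had several probes (11876 genes), the brightest by its mean of 12 arrays stands for it. Tables were made with Python 3.11.15. For 10314 probes the name is an accession, and 0 of them matched a symbol through RefSeq. Probe coordinates are mm9, a build with no genome sequence at hand, so none is printed.

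The 62 lists hold 1662 genes, of which 1652 were measured, and 10 were not on the array. Lists can share members. Also in another list are 10 of 39 neutrophil surface and cytosol genes and 8 of 20 neutrophil granule genes. The same holds for 8 of 24 resident macrophage genes and 11 of 26 leukocyte adhesion genes. Members, lists and the rule for named genes were chosen with earlier results of these data known. By the rule, named genes are the 12 largest rises and 12 largest falls above background without overlap, up to 6 called members per list and 3 against its majority, the 8 largest bounds upward and 4 downward, the genes the study measured, check genes, and the 8 largest differences each way from 3 h and 72 h. List members whose role asks for it are named too. The text does not name all genes the rule takes.

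Alternatives were quantile normalization, the percentile over probes above background, normexp (offset 50), the authors' log2 values, dim probes left out or set to a floor, all spots used, slide as a block, 1 slide alone, a replicate block, 6 arrays alone, eBayes with trend and robust, the methods' t-test, treat, other thresholds, other probe choices and leaving out each array.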

Additional observations from a re-analysis of the deposited data

Results flagged for a closer look

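Each value here is the log2 difference between the change at 12 h and the change at another time, both against the same sham arrays, and was singled out because the fit's test of that difference passed the thresholds. Some of the genes belong to those measured by the study. The change at 12 h was above the change at 3 h by 1.81 for Tnf, 1.33 for Il6ra and 1.35 for Ptprc. Other probes of Ptprc, well above background, were not called against sham (log2 fold changes -0.04, 0.43 and 0.87), nor was another probe of Il6ra (0.78). With slide as a block the calls against 3 h of Tnf (1.93) and Ptprc (1.38) were lost, as were those of Ptprc and Il6ra against sham. Both calls against 3 h were also lost with a replicate block and on leaving out any of several single arrays. Leaving out single arrays also ended the calls of Ptprc and Il6ra against sham. The change at 12 h was above the change at 72 h by 1.85 for Tnf, 1.74 for Cxcl2 and 3.73 for Ly6g, and the difference was -4.63 for Col1a1 and -4.20 for Wt1. With slide as a block, so that 1 of the 12 h arrays is compared, the calls of Tnf (1.63) and Cxcl2 (1.05) were lost. Both calls were also lost without 12 h replicate 1, 72 h replicate 1 or 72 h replicate 2. That of Cxcl2 was lost too without 12 h replicate 2, with a replicate block and after quantile normalization. Further genes were called at 12 h and at 72 h in opposite directions against sham. Higher at 12 h and lower at 72 h were Sprr1a, a cornified envelope protein, with a difference of 3.66, and the transcription factor Gata4 with 3.06. Lower at 12 h and higher at 72 h were the collagens Col1a2 (-3.85), Col3a1 (-3.29) and Col5a2 (-2.78), the matrix genes Lum (-3.10), Fbln2 (-3.35) and Pcolce (-2.73), the Wnt modulators Sfrp2 (-5.38) and Rspo1 (-3.91), and the macrophage folate receptor Folr2 (-3.01). Other probes of Col3a1 (-1.04 and -1.26) and of Col5a2 (-0.76) were not called at 12 h against sham. The calls against sham of Sprr1a, Col5a2, Fbln2, Folr2 and Sfrp2 were lost on leaving out any of several single arrays. Those of Col5a2 (-1.08) and Sfrp2 (-2.53) were also lost with slide as a block. After normexp background correction the calls against sham of Gata4, Col5a2, Fbln2, Folr2 and Sfrp2 were lost. The 72 h arrays lie on a slide that holds 1 of the 12 h arrays and none of the sham arrays.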

How the results depend on the processing

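Against sham, the 3360 calls became 7850 without a fold change threshold, 729 with treat, 1327 after normexp background correction and 0 with the methods' t-test after adjustment (2841 at an unadjusted p below 0.05), a paired test not stated for the arrays. Leaving out each array in turn gave 2839 to 3662 calls, a replicate block 3247. Replicate numbers were not taken as pairs. The deviations of each array from its group mean were correlated across 31011 probes. Arrays of the same number gave correlations of -0.03, 0.26 and -0.08 for sham and 12 h. For sham and 3 h these were -0.40, -0.09 and -0.08, and for sham and 72 h 0.10, 0.15 and 0.17. For 3 h and 12 h they were -0.16, -0.21 and 0.05, and for 3 h and 72 h -0.01, -0.03 and 0.12. They were -0.15, 0.12 and -0.22 for 12 h and 72 h. Normexp raised the share of higher calls from 45.3% to 62.2%. Calls against sham shared with each alternative kept their direction. Against 3 h, the 1282 calls became 593 at an adjusted p below 0.01, 3327 without a fold change threshold, 13 with treat, 573 after normexp, 837 on the slide of the sham arrays alone and 1 with the adjusted t-test, with 880 to 1289 on leaving out each array and 1116 with a replicate block. Against 72 h, the 2788 calls became 1818, 6872, 241, 1065 and 0 under the same settings except the slide alone, which could not be run, and 1225 with slide as a block, with 2113 to 3088 on leaving out each array and 2612 with a replicate block. A fit of the sham and 12 h arrays alone gives no value for 3 h or 72 h. Single genes turned in direction. Among calls against 72 h, 1 was reversed with the brightest probe chosen over the sham and 12 h arrays. Isl1 had a log2 fold change of 0.0101 against sham with a floor on dim probes. With a gene's probes averaged, the difference from 3 h was 0.13 for Col1a2, -0.0865 for Gata4 and -0.25 for Pax6. The cause was not tested. Leaving out 3 h and 72 h arrays was added after seeing the data. Signal over background limits the calls, since 156 called genes were well above background on 0 arrays of both groups and 416 on all 3 arrays of neither.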
